A study of Mus musculus with 2 samples.

Results

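The genes described here are those of glucose uptake, glycolysis and pyruvate handling together with the core of the hypoxia response, measured in mouse embryonic stem (ES) cells that were or were not treated with retinoic acid (RA). They were chosen as a list of 40 symbols, of which 38 were found among the 22485 named genes of the arrays. Ero1l was found under its current symbol Ero1a, and Gpi1 and Eno1 were skipped because no feature carried their symbol. The related gene Eno1b, which is not counted, had log2 ratios of -0.12 in UtxKO and -0.16 in V6.5.

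RNA of UtxKO cells, a mouse ES line that lacks the X-linked H3K27 demethylase Utx, was hybridised to 1 two-colour Agilent array, and RNA of wild-type V6.5 ES cells to another. On each array the RA-treated cells, kept for 48 h without the cytokine LIF and with 100 nM RA, were labelled with Cy5. The untreated cells of the same line, kept on gelatin in ES medium with LIF, were labelled with Cy3. LIF was withdrawn as RA was added, so the effects of LIF withdrawal and of RA cannot be told apart, and "after RA" stands for both. The labels do not say how the knockout was made or how many clones were used.

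Each gene has 1 log2 ratio per line, and a positive ratio is taken as a higher level after RA. This is the likely direction from the dyes, and the RA targets Cyp26a1 (4.27 in UtxKO and 3.54 in V6.5) and Rarb (2.40 and 2.38) were positive in it. The log base is inferred from the range of the values. Levels in untreated cells are not part of the values, so neither the amounts of 2 genes nor the untreated lines were compared. There is 1 array per line, so a ratio of a single line and a difference between the lines have no replicate check. Kdm6a, which encodes Utx, had -0.16 in UtxKO and -0.39 in V6.5, which compares treatments within a line and does not check the knockout. Of 10 markers of the labelled cell type, ES cells, 3 fell and 0 rose in limma (7 lower and 1 higher at an unadjusted p under 0.05), with medians of -0.28 in UtxKO and -0.58 in V6.5. Those past 2-fold in a line were Klf4 (-2.44 in UtxKO and -1.65 in V6.5), Pou5f1 (-1.58 and -0.94) and Tbx3 (-1.04 and -0.62). Of 12 primitive endoderm markers 0 rose and 2 fell in limma, Lama1 and Sparc (3 higher and 2 lower at an unadjusted p under 0.05). Both ratios were above 0 for 5 of the 12 and below 0 for 2, and the signs differed for 5. Their medians were 0.27 in UtxKO and -0.015 in V6.5, with 0 past 2-fold. The part of these markers in the values below was not tested.

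Glycolysis turns glucose into pyruvate, which is either reduced to lactate or enters mitochondria through pyruvate dehydrogenase. ES cells are known for a high glycolytic flux. The hypoxia-inducible factors (HIF) are pairs of an oxygen-labile alpha subunit and a stable beta subunit. Prolyl hydroxylases mark the alpha subunit for destruction when oxygen is present. When oxygen is short, HIF binds a short core, A or G followed by CGTG, and raises glucose transporters, glycolytic enzymes, pyruvate dehydrogenase kinases and other targets.

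The genes were chosen by symbol and not by promoter sequence, but the list was built around glycolysis and the hypoxia response. A larger share of promoters with that core may therefore follow from the choice itself. RefSeq promoter windows (GRCm38.p6, 250 bases before each annotated start) were found for 35 of the 38 genes, in 48 windows, since 10 genes had several. ACGTG on either strand was present in 27 of the 48 windows, 56.2%, against 18.2% of the 20643 windows of the other genes on the arrays. GCGTG on either strand was present in 26 windows, 54.2%, against 34.8%. ACGTG is also the inner part of the E-box CACGTG, which Myc and USF proteins bind, and a site that reads ACGTG on both strands was counted once. The windows were richer in CG dinucleotides, with a median of 14 against 10. Between the quartiles of the members' CG counts (8.75 and 21.25), ACGTG was present in 45.8% of their windows and in 23.3% of the other genes' windows, and GCGTG in 50% and 47.0%. These shares are descriptions without a test, and a match does not show that HIF binds there.

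Shown are 4 windows of genes that passed the test of the shared RA response, 1 rising and 3 falling. The windows of Hk1 and Pfkp, which passed as well, are not printed. Capitals mark the core on either strand, with A or G first. The P4ha2 window lies at chr11:54100674-54100923 on the plus strand, the Hk2 window at chr6:82774455-82774704 on the minus strand, the first of 2 Pdk1 windows at chr2:71872974-71873223 on the plus strand and the Ldhb window at chr6:142507958-142508207 on the minus strand.
P4ha2: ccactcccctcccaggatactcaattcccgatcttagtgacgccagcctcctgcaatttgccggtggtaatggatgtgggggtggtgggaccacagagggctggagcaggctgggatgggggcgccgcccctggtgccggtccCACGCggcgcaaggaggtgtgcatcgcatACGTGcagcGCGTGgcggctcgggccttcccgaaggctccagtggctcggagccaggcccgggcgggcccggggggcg
Hk2: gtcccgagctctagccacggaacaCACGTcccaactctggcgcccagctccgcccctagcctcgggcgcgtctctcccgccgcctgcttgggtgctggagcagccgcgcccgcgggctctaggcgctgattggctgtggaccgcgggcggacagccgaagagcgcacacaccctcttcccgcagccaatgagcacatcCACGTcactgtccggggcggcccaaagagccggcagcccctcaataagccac
Pdk1: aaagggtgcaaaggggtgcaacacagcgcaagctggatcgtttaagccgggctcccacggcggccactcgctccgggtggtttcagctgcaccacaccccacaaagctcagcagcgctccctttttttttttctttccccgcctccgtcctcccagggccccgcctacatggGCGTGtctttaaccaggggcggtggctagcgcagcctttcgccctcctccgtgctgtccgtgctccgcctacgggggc
Ldhb: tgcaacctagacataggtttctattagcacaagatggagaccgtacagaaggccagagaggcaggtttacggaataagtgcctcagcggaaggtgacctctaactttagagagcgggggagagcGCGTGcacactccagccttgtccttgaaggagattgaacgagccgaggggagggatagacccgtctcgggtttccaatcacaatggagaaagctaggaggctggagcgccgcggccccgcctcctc
The window of P4ha2, which rose, holds 1 ACGTG site and 2 GCGTG sites. The window of Hk2, which fell, holds 2 ACGTG sites. Those of Pdk1 and Ldhb, which fell as well, hold 0 ACGTG sites and 1 GCGTG site each. Of the other genes that passed, Hk1 and Pfkp had windows with 0 ACGTG sites and, in 1 window each, 3 GCGTG sites, and no window was matched for Slc2a3 and Ndrg1. Among the genes that did not pass, 25 of 40 windows held ACGTG.

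**Figure D1:**
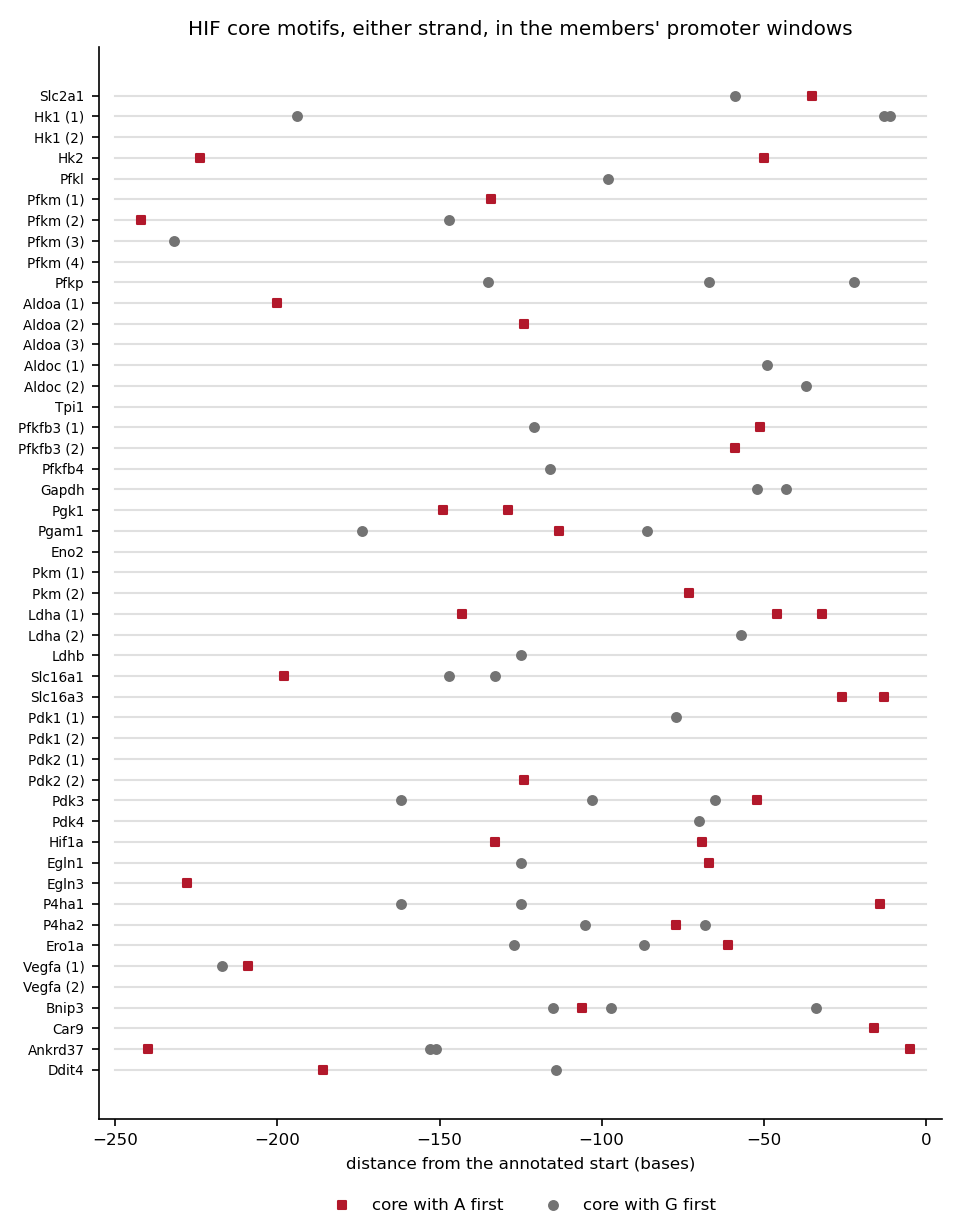
Each line is 1 window of 250 bases before an annotated start, with the distance to the start in bases on the horizontal axis and the gene (and window number) at the left. Squares are sites of the core with A first and circles sites with G first, on either strand. Sites with A first are present in 27 of the 48 windows and are spread over the whole window.

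As a set the 38 genes moved little after RA, and a few members moved far. The median log2 ratio was -0.17 in UtxKO and -0.14 in V6.5, against -0.02 in both lines over all genes. In UtxKO 1 of the 38 was at least 2-fold higher (Slc2a1), where 2.92% of all genes were, and 2 were at least 2-fold lower (Ldhb and Ndrg1), against 1.65%. In V6.5 there was 1 higher (Slc2a3), against 2.52% of all genes, and 2 lower (Ldhb and Hk1), against 1.59%. At 1.5-fold, 4 members were higher in UtxKO, against 7.28% of all genes, and 5 lower, against 5.06%. In V6.5, 2 were higher at 1.5-fold, against 6.69%, and 5 lower, against 5.36%. Counts this small do not set the members apart from all genes. Both ratios were below 0 for 21 members, against 41.2% of all genes, and above 0 for 8, against 34.3%. The signs differed for 9 members, 23.7%, and for 24.4% of all genes. Across the 38 members the ratios of the lines had a Pearson correlation of 0.82, and 0.84 across all genes, a description over genes that share the 2 arrays and their dyes.

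An RA response common to both lines was tested with limma over all 22485 genes, taking the lines as 2 arrays of 1 response. At a Benjamini-Hochberg adjusted p under 0.05, 2 members rose, Slc2a3 and P4ha2, and 6 fell, Hk1, Hk2, Pfkp, Ldhb, Pdk1 and Ndrg1. Of all genes 8.93% rose and 7.93% fell in this test, 16.9% together, and 8 of 38 members is near that share. By direction, the members' share that fell was above that of all genes and the share that rose below it, on small counts. At an unadjusted p under 0.05 there were 5 members up (13.16%), where 16.8% of all genes were. At that bound 11 were down (28.95%), against 17.9%. Against a 1.5-fold change (limma's treat), 0 members rose, where 0.872% of all genes did, and 0 fell, where 0.431% did. The lowest adjusted p of a member in treat was 0.1845 upward and 0.0645 downward. The dyes ran the same way on both arrays, so a dye bias of a gene adds to both of its ratios. Values after ± below are limma's moderated SEs over the 2 arrays. They are drawn toward a spread pooled over all genes. They hold any difference between the lines and do not measure the spread between cultures of 1 line.

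**Figure D2:**
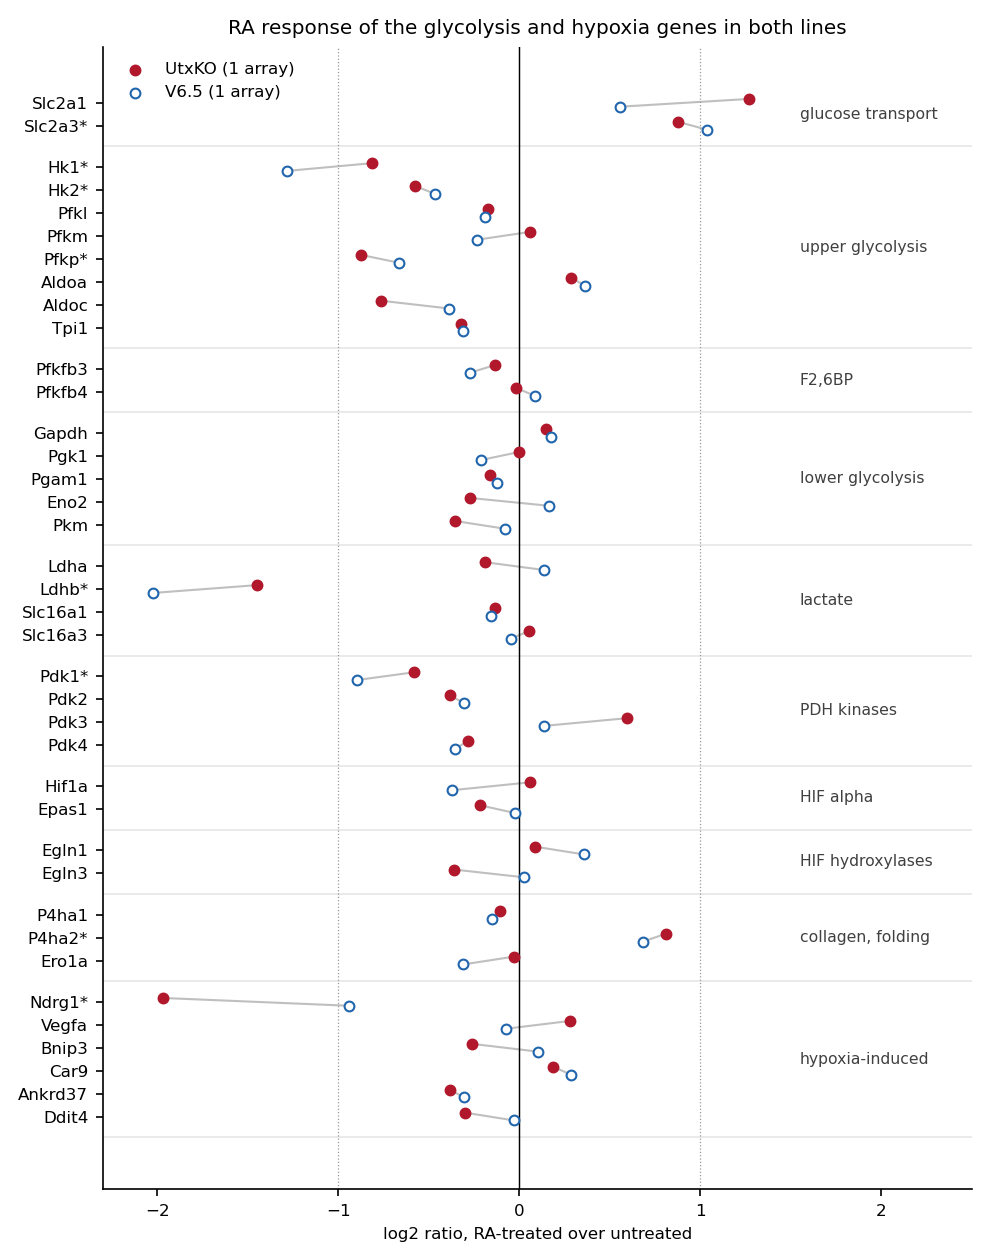
Log2 ratio between RA-treated and untreated cells (horizontal axis, above 0 where higher after RA) for each of the 38 genes, in the order of their roles, with filled points for UtxKO and open points for V6.5, 1 array each. Asterisks mark the 8 genes called by limma over both lines, and dotted lines mark 2-fold. Ldhb and Ndrg1 lie farthest to the left and both glucose transporters lie to the right of 0 in both lines.

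The 2 facilitative glucose transporters of the list were higher after RA in both lines. Slc2a3 encodes GLUT3, a high-affinity transporter, and had log2 ratios of 0.88 in UtxKO and 1.04 in V6.5, which is 1.84-fold and 2.05-fold. It rose by 0.96 ± 0.08 in the shared response (limma, adjusted p = 0.0129). Slc2a1, which encodes the widely expressed GLUT1, had 1.27 in UtxKO and 0.56 in V6.5, or 2.41-fold and 1.47-fold. The lines lay far apart for Slc2a1, and its mean of 0.91 ± 0.19 missed the threshold (limma, adjusted p = 0.0523). It passed with both arrays on 1 scale and with features in place of genes, and over its 5 alternatives tested against 0 the adjusted p in limma ran between 0.0469 and 0.0593. Both genes rest on 1 feature. In these bulk RNA ratios a change in the share of cells of a type and a change in RNA per cell cannot be told apart.

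Hexokinases trap glucose in the cell as glucose 6-phosphate, and both on the list fell. Hk1, the broadly expressed form, had -0.81 in UtxKO and -1.28 in V6.5, so RA-treated cells held 57.0% and 41.1% of the untreated level. Its mean was -1.05 ± 0.14 (limma, adjusted p = 0.0232), and its 2 features lay between -0.90 and -0.72 in UtxKO and between -1.36 and -1.21 in V6.5. The 2 features read the same RNA on 1 array per line, so they are not replicates of a line. Hk2, an insulin- and hypoxia-induced form, had -0.58 and -0.46, a mean of -0.52 ± 0.08 (limma, adjusted p = 0.0287). The change of Hk1 was the larger of the pair in both lines.

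Phosphofructokinase, the committed step of glycolysis, has platelet, liver and muscle subunits, of which the platelet one fell. Pfkp, which encodes it, had -0.88 in UtxKO and -0.67 in V6.5 and fell to a mean of -0.77 ± 0.09 (limma, adjusted p = 0.0191). Its 2 features differed more than the lines did, at -1.10 and -0.65 in UtxKO and -0.94 and -0.40 in V6.5. Pfkl, the liver type, had -0.17 and -0.19. Pfkm, the muscle type, had 0.06 in UtxKO and -0.23 in V6.5, and its 10 features spanned -0.08 to 0.14 in UtxKO and -0.39 to -0.07 in V6.5. Neither Pfkl (adjusted p = 0.174) nor Pfkm (adjusted p = 0.602) passed in limma. The differences between the subunits were not tested.

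Aldolase splits the 6-carbon sugar, and its A and C forms had opposite signs. Aldoa, the ubiquitous form, had 0.29 in UtxKO and 0.36 in V6.5. Aldoc, the form of brain and a HIF target, had -0.76 and -0.39. Neither passed in limma, with an adjusted p of 0.0615 for Aldoa and 0.0506 for Aldoc. Aldoc passed with both arrays on 1 scale, with the median over features and with features in place of genes (limma, lowest adjusted p = 0.0459). Both genes rest on 1 feature, so the settings on features leave the ratios of Aldoc unchanged. Tpi1, which interconverts the triose phosphates, had -0.32 and -0.31 (adjusted p = 0.0599 in limma). It passed when the fit held only genes with 2 or more features. The bifunctional enzymes Pfkfb3 and Pfkfb4 set the level of fructose 2,6-bisphosphate, the activator of phosphofructokinase. Pfkfb3 had -0.13 and -0.27 and Pfkfb4 -0.02 and 0.08, without passing.

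The later steps of glycolysis showed small ratios, and 0 of 5 members passed in limma, also 0 at an unadjusted p under 0.05. The ratios of Gapdh, Pgk1, Pgam1, Eno2 and Pkm lay between -0.36 and 0.14 in UtxKO and between -0.21 and 0.18 in V6.5. Gapdh, often used as a loading reference, averaged 0.14 and 0.18 over 7 features that ranged from -0.33 to 0.72 in UtxKO and from -0.10 to 0.55 in V6.5. Its features thus disagreed in sign, and 1 or more of them passed where features were fitted one by one. Gapdh and other glycolysis genes have processed copies in the genome that can share signal with a probe, so their values are uncertain. Pkm, whose product pyruvate kinase makes pyruvate, had -0.36 in UtxKO and -0.08 in V6.5. The neuronal enolase Eno2 had -0.27 in UtxKO and 0.16 in V6.5.

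Ldhb had the lowest mean of the list. Lactate dehydrogenase is a tetramer of A and B subunits, of which the B type is the heart form, and Ldhb had -1.45 in UtxKO and -2.02 in V6.5. RA-treated cells thus held 36.6% and 24.6% of the untreated level. Counted from the lowest of 22485 genes, Ldhb was at rank 138 in UtxKO and rank 26 in V6.5. It fell to a mean of -1.74 ± 0.16 (limma, adjusted p = 0.0142), on 1 feature. Ldha, the A subunit and a HIF target, had -0.19 in UtxKO and 0.14 in V6.5, and its 3 features held their sign within each line (-0.21 to -0.17 and 0.03 to 0.27). The lactate carriers Slc16a1 (MCT1) and Slc16a3 (MCT4) had -0.14 and 0.05 in UtxKO and -0.16 and -0.05 in V6.5. The 2 features of Slc16a3 differed in sign in both lines, at 0.23 and -0.13 in UtxKO and 0.06 and -0.15 in V6.5.

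Pyruvate dehydrogenase kinases switch off the entry of pyruvate into mitochondria. Pdk1, a HIF target, had -0.58 in UtxKO and -0.90 in V6.5 and fell to a mean of -0.74 ± 0.11 (limma, adjusted p = 0.0275). Pdk2 (-0.38 and -0.31) and Pdk4 (-0.29 and -0.35) were below 0 in both lines at adjusted p of 0.0546 and 0.0624 in limma. Pdk2 passed where features or only genes with several features were fitted. The X-linked Pdk3 was the member of the family above 0, with 0.60 in UtxKO and 0.13 in V6.5 (adjusted p = 0.155 in limma).

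Of the HIF genes themselves, Hif1a had 0.06 in UtxKO and -0.37 in V6.5, and Epas1, which encodes HIF-2 alpha, had -0.22 and -0.02. The 3 features of Epas1 ran from -0.71 to 0.19 in UtxKO and from -0.60 to 0.31 in V6.5, and with the median over features its mean turned from -0.12 to 0.05. With features in place of genes, its feature of lowest p passed as fallen, at -0.66 (limma, adjusted p = 0.0195). Of the prolyl hydroxylases that tag HIF, Egln1 (PHD2) had 0.08 in UtxKO and 0.35 in V6.5, and Egln3 (PHD3), itself hypoxia-induced, had -0.36 and 0.03. By gene average, 0 of these 4 passed in limma, and 0 did at an unadjusted p under 0.05. Their RNA does not show how much HIF protein the cells held.

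The collagen prolyl 4-hydroxylases are HIF targets that act in the endoplasmic reticulum, and 1 of the 2 catalytic subunits on the list rose. P4ha2 had 0.81 in UtxKO and 0.68 in V6.5, which is 1.75-fold and 1.61-fold, and rose by 0.75 ± 0.08 (limma, adjusted p = 0.0168). P4ha1 had -0.11 and -0.15 (adjusted p = 0.303 in limma). Ero1a, an oxidase that drives disulfide bond formation, had -0.03 and -0.31. Of 14 fibroblast markers, which include substrates of these enzymes, 10 fell and 0 rose in limma (11 lower and 0 higher at an unadjusted p under 0.05). Those past 2-fold in a line were the collagen genes Col1a1, Col1a2, Col3a1 and Col5a1 and the genes S100a4, Vim, Thy1, Fn1 and Postn. The type IV collagens Col4a1 (0.27 in UtxKO and -0.00 in V6.5) and Col4a2 (0.16 and -0.03) did not pass. The median of the fibroblast list was -1.12 in UtxKO and -0.92 in V6.5. The levels of these markers are not known from ratios, and their part in the values of the glycolysis and hypoxia genes was not tested.

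Among the other hypoxia-induced genes, Ndrg1 fell and the rest did not pass. Ndrg1, a stress- and differentiation-induced gene that is raised by hypoxia and repressed by Myc proteins, had -1.97 in UtxKO and -0.94 in V6.5. RA-treated cells held 25.5% and 52.1% of the untreated level, which placed Ndrg1 at rank 42 and rank 420 from the lowest. Its mean was -1.46 ± 0.27 (limma, adjusted p = 0.0408), on 1 feature. Vegfa, the angiogenic growth factor, had 0.28 in UtxKO and -0.07 in V6.5. Its 2 features lay at 0.52 and 0.04 in UtxKO and at 0.11 and -0.25 in V6.5. The mitophagy receptor Bnip3 had -0.26 and 0.10, and the carbonic anhydrase Car9, a widely used hypoxia marker, had 0.19 and 0.28. Ankrd37 had -0.38 and -0.31, and Ddit4, an inhibitor of mTORC1, had -0.30 and -0.03. Vegfa, Bnip3, Car9, Ankrd37 and Ddit4 were thus within 1.5-fold of the untreated level in both lines.

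**Figure D3:**
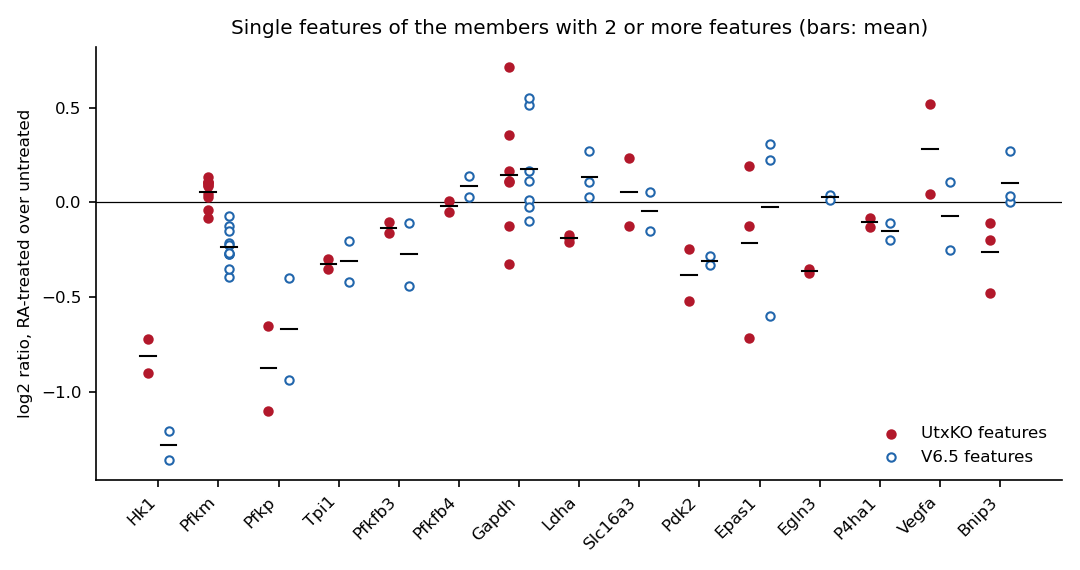
Log2 ratio of single features (vertical axis) for the 15 genes with 2 or more features, with UtxKO at the left and V6.5 at the right of each gene and bars at the mean. The features of Hk1 and of Egln3 lie close together within a line, and those of Gapdh, Epas1 and Pfkp are spread widely.

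The difference between the lines was taken as the UtxKO ratio minus the V6.5 ratio. Over the 38 members its median was -0.03, against 0.00 over all genes, with 17 members above 0 and 21 below. At a bound of 2-fold, 1 member was lower in UtxKO, where 0.467% of all genes were, and 0 were higher, against 0.583%. At 1.5-fold, 1 was lower, against 1.88% of all genes, and 1 higher, against 2.5%. The lower member was Ndrg1 at both bounds, with a difference of -1.03, at rank 94 from the lowest of all genes. The higher one was Slc2a1, with 0.71, which is 1.64-fold. Ldhb had a difference of 0.57, its ratio lying nearer to 0 in UtxKO, and Hk1 (0.47), Pdk3 (0.46) and Hif1a (0.43) were above 0 too. Eno2 (-0.44), Egln3 (-0.39), Aldoc (-0.38) and Bnip3 (-0.37) lay on the other side. For 16 of the members the difference was smaller than 0.14, the median SD between features of 1 gene on an array, over genes with 2 to 9 features. No difference between the lines was tested, as there is 1 array on each side.

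**Figure D4:**
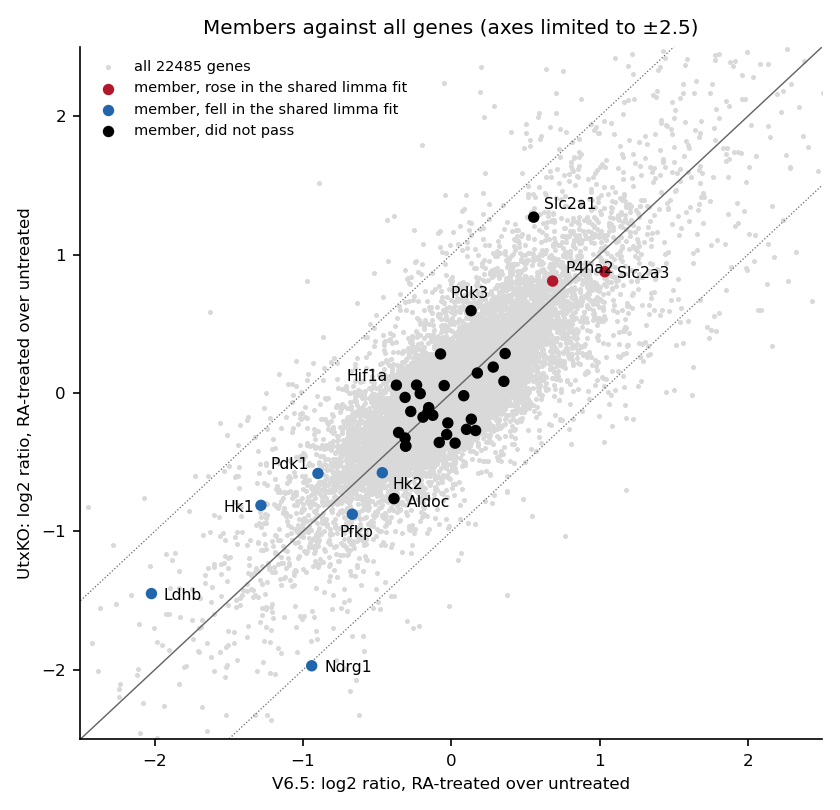
Log2 ratio in UtxKO (vertical axis) against V6.5 (horizontal axis) for all 22485 genes in grey and the 38 members in colour. The solid line marks equal ratios and the dotted lines a 2-fold difference between the lines, and Ndrg1 is the member on the lower dotted line.

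Genes of the same pathways outside the list were measured in 4 further lists. Of 30 other genes of glycolysis and pyruvate handling, 0 rose and 3 fell in limma (3 higher and 12 lower at an unadjusted p under 0.05), with a median of -0.18 in UtxKO and -0.13 in V6.5. The insulin-responsive transporter Slc2a4 fell to -0.64 ± 0.11 over 10 features, the pyruvate dehydrogenase phosphatase Pdp1 to -0.63 ± 0.07 and the mitochondrial carboxykinase Pck2 to -0.37 ± 0.07. A pair of germ-cell isoenzymes differed most between the lines. Pgk2, the testis form of phosphoglycerate kinase, had 1.89 in UtxKO and 0.78 in V6.5, while Pgk1 had -0.00 and -0.21. Ldhc, the testis form of lactate dehydrogenase, had -0.18 in UtxKO and -1.37 in V6.5. Neither passed in limma, with an adjusted p of 0.0544 for Pgk2 and 0.173 for Ldhc.

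In the pentose phosphate pathway, which branches off at glucose 6-phosphate, 1 of 7 genes rose and 1 fell. The transketolase Tkt fell (-0.51 in UtxKO and -0.58 in V6.5) and its relative Tktl1 rose (0.97 and 0.67), to means of -0.54 ± 0.07 and 0.82 ± 0.10 in limma.

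Of 15 genes of the HIF machinery, 4 rose and 1 fell. The beta subunit Arnt fell to -0.45 ± 0.08 and its neural relative Arnt2 rose by 0.76 ± 0.09. The 2 features of Arnt lay far apart, with an SD of 0.44 in UtxKO and 0.47 in V6.5, which its SE does not hold. Cited2, which competes with HIF for its coactivators, rose by 0.74 ± 0.07, and the ubiquitin ligase Siah2, which acts on prolyl hydroxylases, by 0.45 ± 0.09. The coactivator Crebbp rose as well, with 0.95 in UtxKO and 2.04 in V6.5 on 1 feature, while its close relative Ep300 had -0.14 and -0.35. Vhl, the ligase subunit that binds hydroxylated HIF, had 0.08 and -0.04.

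Of 32 further hypoxia-induced genes, 4 rose and 7 fell. The genes that rose were Igfbp3, a carrier of insulin-like growth factors (1.33 in UtxKO and 1.67 in V6.5), the endothelin gene Edn1 (0.97 and 0.58), the carbonic anhydrase Car12 (0.54 and 0.76) and Ppp1r3c, which targets a phosphatase to glycogen (0.61 and 0.69). The genes that fell included those of collagen crosslinking, Lox at -2.08 ± 0.08, Plod1 at -0.65 ± 0.07 and Plod2 at -0.41 ± 0.08. The hormone gene Stc2 fell to -1.06 ± 0.11, and Wsb1, Rora and Angptl4 fell as well. Lox, at rank 31 in UtxKO and rank 19 in V6.5 from the lowest, stood beside the fibroblast markers given above, and their part in its ratio was not tested. The medians of this list were -0.24 in UtxKO and -0.07 in V6.5.

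**Figure D5:**
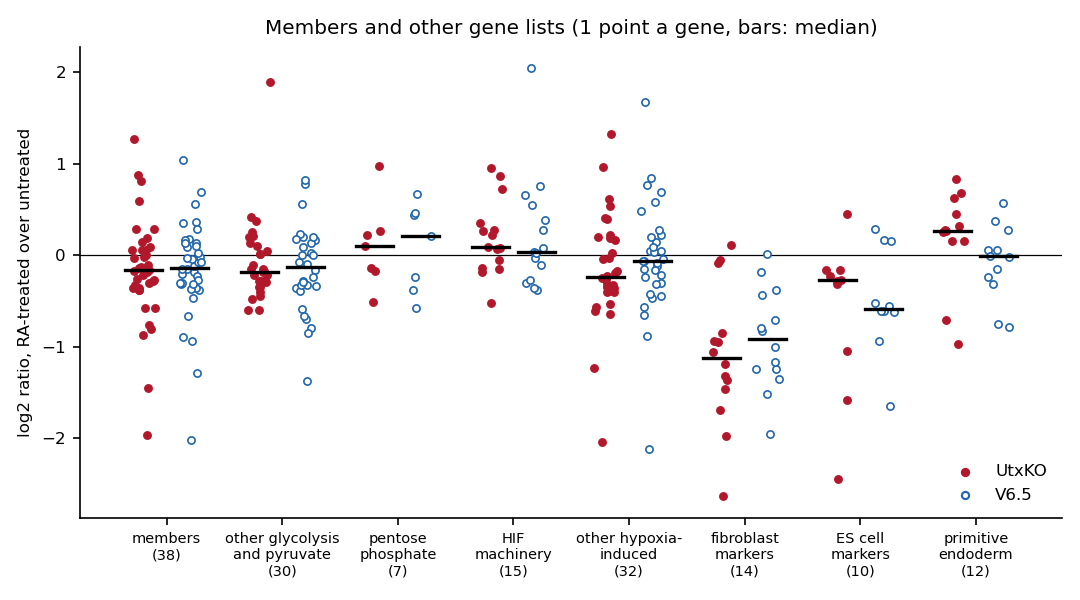
Log2 ratio (vertical axis) of each gene in the list of 38 members, in 4 further pathway lists and in 3 marker lists, with UtxKO at the left and V6.5 at the right of each list, 1 point a gene and bars at the median. The medians of the pathway lists lie between -0.24 and 0.21, those of the fibroblast markers at -1.12 and -0.92 and those of the primitive endoderm markers at 0.27 and -0.015.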

How the data were processed

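The deposited table gives 1 value per feature (44397) and array, read here as log2 ratios made by the authors. The submitters' processing notes name limma, with neither role nor version. Background correction, normalization within arrays, direction, log base and genome build are not stated. Both deposited columns average 0, by a step that is not given, and their medians are -0.03 in UtxKO and -0.03 in V6.5. Spot intensities were not used here, which leaves signal over background unknown. With 1 array a line, the number of arrays limits precision.

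Features with 1 gene symbol in the platform annotation (33026, with 0 of several symbols and 11371 unnamed here) were averaged per gene. Of the members 15 had 2 or more features and 23 had 1. Among those 15, all features held 1 sign on both arrays for 6. The shared response was fitted with limma 3.58.1 in R 4.3.3 as an intercept over both arrays (lmFit, eBayes; 1 residual and 2.98 prior degrees of freedom; two-sided, Benjamini-Hochberg over 22485 genes), after a test on simulated data. Tables and plots were made with Python 3.11.15, pandas 2.3.3, numpy 2.4.6 and matplotlib 3.10.9. Promoters come from the RefSeq table of GRCm38.p6, matched by Entrez number.

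The members and gene lists were chosen with earlier results of these data known. All members are reported. Genes of the other pathway lists are named if they passed limma or had a ratio or difference of at least 1 in size, and marker genes if past 2-fold in a line. Vhl, Ep300, Lama1, Sparc, Col4a1 and Col4a2 were added after their values were seen. The 2 arrays are of different lines, so p-values rest on the spread between UtxKO and V6.5 and on a prior pooled over all genes. With 2.98 prior degrees of freedom against 1 residual, the prior weighs more than the spread of the gene itself. The spread between the 2 arrays holds any difference between the lines together with technical spread, and these cannot be told apart. The labels name no separate cultures within a line.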

Additional observations from a re-analysis of the deposited data

Results flagged for a closer look

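Eno2, the neuronal enolase, was the member whose ratios had opposite signs with both at least 1.1-fold in size. It had -0.27 in UtxKO and 0.16 in V6.5, a difference of -0.44 on the log2 scale on 1 feature. The difference was not tested.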

How the results depend on the processing

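No paired analysis was possible because each line has 1 array and the labels give no replicate numbers. With centring on the median of each array, the calls of all 38 members stayed on their side of the threshold, and likewise with robust eBayes. With both arrays on 1 scale, 36 did and Slc2a1 and Aldoc passed as well. The 8 calls held under all 5 or 6 alternatives tested against 0 that had a value for the gene. Their adjusted p in limma was at most 0.0471 there (Ndrg1). Apart from Hk1 and Pfkp, the called genes rest on 1 feature. For those genes the median over features and features in place of genes leave the ratios unchanged. All 8 calls were lost against 1.5-fold (treat), where 0 members rose and 0 fell. With features fitted in place of genes, each gene was called by its feature of lowest p, which favours calls of genes with several features. There 4 members rose and 9 fell. With genes of 2 or more features alone, 15 members were left in the fit, of which 0 rose and 4 fell. The share of all genes called was not taken for either of these fits, so their counts do not set the members apart. At 1.5-fold in place of 2-fold, 4 members were higher and 5 lower in UtxKO, 2 and 5 in V6.5, and the UtxKO ratio was above the V6.5 ratio for 1 (Slc2a1) and below it for 1. The sign turned for Epas1 with the median over features (mean of 0.048) and for Slc16a3 with its feature of lowest p (-0.138), neither of which passed there; the cause was not tested. The feature of Epas1 with the lowest p did pass, at -0.656 (adjusted p = 0.0195 in limma). Member medians moved by less than the spread between features.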
